A study of Homo sapiens with 6 samples.

Results

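MALAT1, NEAT1, NORAD, TUG1, KCNQ1OT1, OIP5-AS1 and MEG3 are long non-coding RNAs (lncRNAs), transcripts that act without being translated. They were chosen by name as long regulatory lncRNAs. The choice used no measured value as a rule, but was made with earlier results of these data known. The 7 genes had 70 of the 207167 transcripts and were 7 of the 63190 gene identifiers for which levels were estimated. Total RNA depleted of ribosomal RNA was sequenced in 3 libraries of cells overexpressing the D391N mutant of DIS3L2 and 3 libraries of control cells. The labels give the line of both groups as HEK293, a human embryonic kidney line, and the study's methods as HEK293T-Rex FlipIn, a derivative that carries the tetracycline repressor. DIS3L2 is a 3′ to 5′ exonuclease that degrades RNAs carrying uridine tails, and D391N is its catalytically inactive form. The study's methods describe it as a 3xFlag-tagged protein, inducible with doxycycline from an integrated construct. They do not say whether the control cells received doxycycline. Each group was 1 cell line, so construct and line cannot be told apart, and the labels do not say whether the 3 libraries of a group came from separate cultures. The p-values therefore measure the spread between these libraries, which may be technical. Per the study's methods 3 libraries shared a sequencing lane, and which ones is not stated, so lane and group cannot be told apart.

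The levels are RPKM, that is reads per kilobase of transcript and per 1000000 reads, summed over all transcripts of a gene unless a transcript is named. Read totals were not part of the values. Relative to control replicate 2 the depth ranged from 0.618, in D391N replicate 2, to 1, judged from the values given to transcripts that drew no reads. DIS3L2, to whose level reads of the construct count, measured 369, 467 and 512 RPKM in the D391N libraries (replicates 1, 2 and 3, the order used throughout) against 11.8, 12.9 and 14.6 RPKM in the controls. The log2 difference was 5.08 on summed RPKM and 2.92 in RPM, reads per 1000000 reads of the library. Of 8 markers of the HEK293 line 6 were tested, VIM and KRT8 at 110 to 177 RPKM and 98.6 to 180 RPKM. The mean log2 level of 5 of the 6 was lower in D391N cells, with a median of -0.35. For 3 of them every D391N library lay below every control, as for 20.7% of all genes tested, namely VIM (-0.43, adjusted p = 0.210), KRT8 (-0.69, adjusted p = 0.0907) and KRT18 (-0.27, adjusted p = 0.374). The part of this in the results was not tested. Of 7 matched markers of other cell types, PTPRC, CD3E, ALB, MYH7 and INS had no transcript with 3 estimated reads in any library. The highest values of any transcript of HBB and COL1A2 were 63.2 and 26.1 reads. In D391N replicate 2, transcripts under 200 nt took 0.342% of the reads, against 1.52 to 3.18% in the other libraries. D391N replicate 1 had the most weight on the number of calls, since 29 genes passed the threshold with all libraries and 2267 without it.

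lncRNAs work from the place where they stay. MALAT1 is retained in nuclear speckles, where splicing factors gather, and NEAT1 is the scaffold of paraspeckles, nuclear bodies built on its long isoform. NORAD is cytoplasmic and binds Pumilio proteins, which otherwise repress mRNAs of chromosome segregation and DNA repair. KCNQ1OT1 and MEG3 are imprinted RNAs made from 1 parental allele, and KCNQ1OT1 silences neighbouring genes in cis. TUG1 has been linked to Polycomb repression, and OIP5-AS1, known as cyrano in zebrafish, binds the mRNA-stabilising protein HuR, encoded by ELAVL1.

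The NORAD sequence carries the element through which it binds Pumilio. Its only listed transcript, ENST00000565493, has 5401 nt in the reference transcripts and holds 15 copies of UGUANAUA, the element that Pumilio proteins recognise. The copies start between positions 819 and 4657, counted from the 5′ end. In the sense strand of 1380 lncRNA transcripts of 4000 to 7000 nt, 41.1% held at least 1 copy, the median was 0 copies, and 4 transcripts or 0.290%, NORAD included, held 15 or more. Of the copies in NORAD, 10 read TGTATATA, 4 TGTAAATA and 1 TGTACATA, with U written as T. The following 6 are shown because they carry all 3 spellings, with the element in capitals.
NORAD position 819: ggaaggcctgTGTATATAatatgaaaaa
NORAD position 1198: ctcactactgTGTATATAgttgacaatg
NORAD position 1299: aatcacatttTGTAAATAcctttttgtt
NORAD position 1509: gtgtatatagTGTACATAaaggacagac
NORAD position 3030: aaccctactgTGTATATAgcggacaaac
NORAD position 3651: aatgctactgTGTATATAatggaaaact
The letters CTACTG stand directly before the element at positions 1198, 3030 and 3651. Copies at 1500 and 1509, at 2697 and 2706, and at 3333 and 3342 begin 9 nt apart. Among the other lncRNAs, KCNQ1OT1 held 9 copies in 91667 nt, the long NEAT1 transcript 6 in 22743 nt and the full-length MALAT1 transcript none in 10434 nt, so that the density was 2.78 copies per kb in NORAD, 0.264 in NEAT1 and 0.0982 in KCNQ1OT1. The highest density in a transcript of the other genes was 0.475 per kb, with 2 copies in ENST00000569384 of TUG1, and OIP5-AS1 and MEG3 held at most 1 copy in a transcript. A match of letters does not show that the protein binds there.

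**Figure D1:**
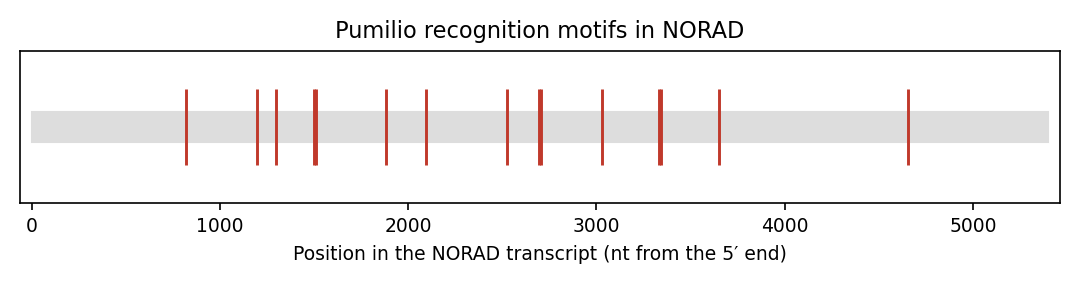
Positions of the 15 UGUANAUA elements (red lines) along the NORAD transcript (grey bar), in nt from its 5′ end. The elements lie between 819 and 4657 nt of 5401 nt, and 3 pairs of neighbours are drawn almost as 1 line because they begin 9 nt apart.

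MALAT1 and NEAT1 share a 3′ end that most lncRNAs lack. The long form of each ends without a poly(A) tail, after RNase P cuts ahead of a tRNA-like structure, and U-rich and A-rich stretches near the cut pair into a triple helix that shields the end from exonucleases. The last 10 nt of the long NEAT1 transcript, AAAAGCAAAA, were searched for as the A-rich stretch and their reverse complement, TTTTGCTTTT, as the U-rich one, on the sense strand. Of the 1380 lncRNA transcripts of 4000 to 7000 nt, 4.35% held the first and 4.78% the second. These shares are for each stretch alone. In MALAT1 and NEAT1 both occur close together, as shown with the stretch in capitals. The full-length MALAT1 transcript holds a further A-rich match that is not shown, and KCNQ1OT1 and TUG1 hold A-rich matches without a U-rich one.
MALAT1 U-rich, 8432 to 8441 of 10434 nt: ttttctcaggTTTTGCTTTTtggccttttt
MALAT1 A-rich, 8468 to 8477: ttctagcttaaaaaaaaaAAAAGCAAAA
NEAT1 U-rich, 22693 to 22702 of 22743 nt: cgcactcaggTTTTGCTTTTcaccttccca
NEAT1 A-rich, 22734 to 22743: gtgaaagagtgagcaggaAAAAGCAAAA
In both genes the letters CTCAGG stand directly before the U-rich stretch. The A-rich stretch is the very end of the annotated NEAT1 transcript, whereas the MALAT1 transcript of the reference used here continues for 1957 nt beyond it. Whether the model behind the deposited values did so was not tested.

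The 7 genes spanned more than 3 orders of magnitude. MALAT1 was the highest in all 6 libraries, with a mean 24.5 times that of NORAD, the next in order. NORAD and NEAT1 changed places: NORAD was above NEAT1 in the 3 D391N libraries and NEAT1 above NORAD in the 3 controls. NEAT1 was above OIP5-AS1 in 6 of 6 libraries, OIP5-AS1 above TUG1 in 5 of 6, TUG1 above KCNQ1OT1 in 6 of 6 and KCNQ1OT1 above MEG3 in 6 of 6. In D391N cells 5 of the 7 genes had the higher mean log2 level and 2 the lower. None passed the test (limma on log2(RPKM + 0.1), Benjamini-Hochberg adjusted p under 0.05 over 20714 genes with a mean of at least 1 RPKM), in a data set where only 0.140% of the genes tested did, and 1 of the 7, NORAD, had an unadjusted p under 0.05, against 22.7% of all genes. The median log2 fold change was 0.24 over the 7 genes and -0.090 over all genes tested. In the tests of single genes by exact permutation, 3 libraries against 3 cannot go below p = 0.10.

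**Figure D2:**
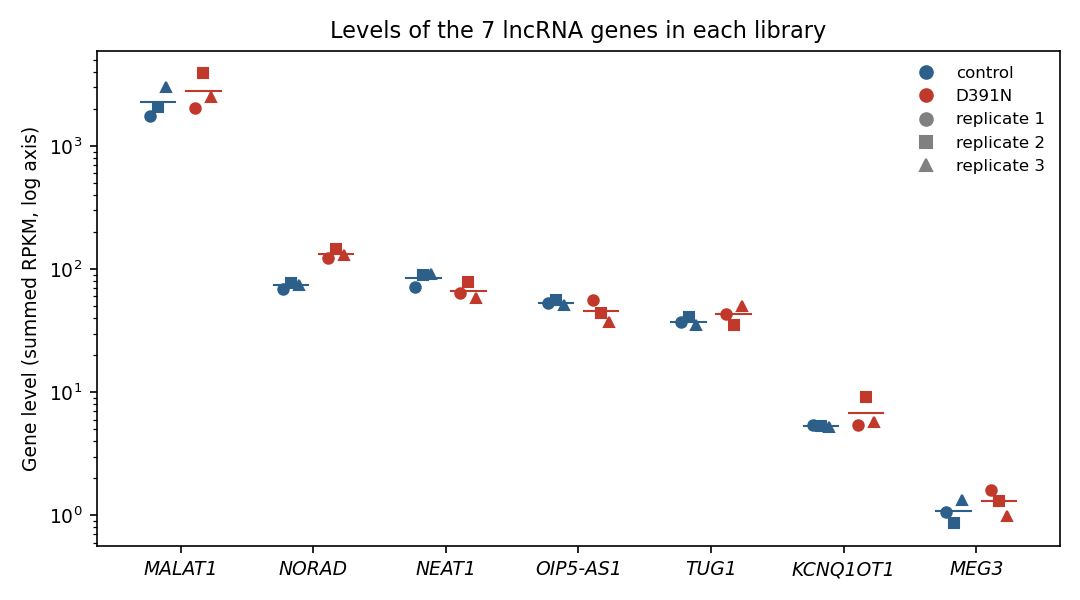
Summed RPKM (log axis) of the 7 genes in each library, with control libraries in blue, D391N libraries in red, a marker shape for each replicate number and a line at each group mean. Only for NORAD are the D391N and control points fully apart.

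NORAD (ENSG00000260032, a single-exon gene at chr20:36045618-36050960 of GRCh38) had the largest log2 difference of the 7 genes. All positions are those of GRCh38. It was at 123, 147 and 132 RPKM in D391N cells and at 69.6, 77.2 and 74.9 RPKM in controls. Every D391N library lay above every control library, and the lowest D391N value was well clear of the highest control value. The groups did not overlap upwards for 10.5% of all genes tested, so NORAD shares this with 2167 genes. The means were 134 ± 12.2 and 73.9 ± 3.89 RPKM (SD, n = 3 each), a fold of 1.81 with a 95% interval of 1.43 to 2.29. On the log2 scale the difference was 0.85 (SE 0.14), higher than that of 96.7% of the genes tested. The unadjusted p was 0.000658, the adjusted p 0.0709 and the exact permutation p 0.1, the smallest that the design can give. NORAD therefore missed the threshold over all genes. The call turned on the processing: the adjusted p was 0.0242 without D391N replicate 1, where the log2 difference was 0.91 and 2267 genes were called in place of 29, and 0.0307 when the gene level was counted in RPM. By its posterior variance each value of NORAD rested on 9384 to 18729 reads, so counting error was small beside the spread between libraries, which was 9.12% of the mean in D391N cells and 5.27% in controls. In bulk libraries more cells with an RNA and more RNA per cell cannot be told apart. NORAD has only 1 transcript, and in the fit over 54671 transcripts its difference had a larger SE of 0.22 and an adjusted p of 0.165.

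MALAT1 (ENSG00000251562, chr11:65497738-65506516) was the most abundant of the 7 genes. It was at 2035, 3908 and 2493 RPKM in D391N cells and at 1749, 2074 and 3021 RPKM in controls. The highest control value was above the lower 2 D391N values, so the groups overlapped. The means were 2812 ± 976 and 2282 ± 661 RPKM (SD, n = 3 each), and the log2 difference was 0.29 with a 95% interval of -0.67 to 1.24 (adjusted p = 0.707 by limma, exact permutation p = 0.6). As a fold this interval runs from 0.629 to 2.36, so that the direction is not determined. Each value rested on 34383 to 68399 estimated reads, and the spread between libraries was 34.7% of the mean in D391N cells and 29.0% in controls. MALAT1 has 17 listed transcripts, many of them short and inside the longest one, so a sum of RPKM gives short models much weight. Counted in reads, MALAT1 was at 5915 to 11717 RPM, and the longest transcript, ENST00000534336, took 26.0 to 37.0% of these. The RPM cover the 16 of its 17 transcripts with a known length. Reads estimated from the posterior variance gave another picture, with 28933 to 56745 on this transcript beside 34383 to 68399 for the gene. The 2 measures differ, so the part of the reads on the longest transcript was not settled.

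The split of the MALAT1 reads among its transcripts was far less steady than their sum. ENST00000534336 itself was at 211, 292 and 250 RPKM in D391N cells and at 210, 250 and 331 RPKM in the controls, with a log2 difference of -0.058 (adjusted p = 0.936). The most abundant model by RPKM, ENST00000544868 of 2505 nt, was at 283, 1027 and 637 RPKM in D391N cells and at 324, 403 and 539 RPKM in controls (log2 difference 0.47, adjusted p = 0.662). Its share of the gene was 21.9 ± 6.95% in D391N cells and 18.6 ± 0.80% in controls (SD, n = 3 each; exact permutation p = 0.4). The short model ENST00000618925 of 424 nt was at 370, 227 and 323 RPKM in D391N cells and 245, 200 and 194 RPKM in controls (0.50, adjusted p = 0.404). For these models the groups overlapped.

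Other MALAT1 models varied far more among the libraries of 1 group. ENST00000620465 of 2912 nt was at 236, 8.77 and 126 RPKM in D391N cells and at 430, 761 and 1177 RPKM in the controls, all above the D391N values. Its log2 difference was -3.51 (SE 1.18, adjusted p = 0.219). In D391N replicate 2 its posterior SD was 94.6% of the value, which corresponds to less than 1 estimated read. This measure cannot tell few reads from shared reads whose division among models is uncertain. The next models were singled out after their values were seen. ENST00000619449 of 4227 nt was at 61.3, 685 and 240 RPKM in D391N cells and at 6.0, 2.28 and 6.69 RPKM in controls, and its adjusted p of 0.0878 (log2 difference 5.55, SE 0.88) was the lowest of any transcript of the 7 genes. ENST00000612781 of 1433 nt was at 312, 159 and 1.63 RPKM in D391N cells and at 1.68, 0.16 and 0.66 RPKM in controls. By the same measure each control value had less than 1 estimated read. ENST00000508832 of 6168 nt was at 3.67, 282 and 209 RPKM in D391N cells and at 4.68, 3.46 and 0.24 RPKM in controls. Levels of models that share nearly all their sequence depend on how the shared reads were divided, and the part of this division in the differences was not tested. Over the 14 MALAT1 transcripts tested, 8 had the higher and 6 the lower mean log2 level in D391N cells, from -3.92 (ENST00000618227) to 5.96 (ENST00000612781), and 5 had an unadjusted p under 0.05. Both of these extremes belong to models with less than 1 estimated read in every library of 1 group, so they depend on the pseudocount.

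NEAT1 (ENSG00000245532, chr11:65422798-65445540), which lies beside MALAT1, had lower means in D391N cells. It was at 64.0, 78.6 and 58.0 RPKM in D391N cells and at 71.5, 89.0 and 91.8 RPKM in controls. The groups overlapped in 1 pair, D391N replicate 2 above control replicate 1. The means were 66.9 ± 10.6 and 84.1 ± 11.0 RPKM (SD, n = 3 each), with a log2 difference of -0.33 and a 95% interval of -0.76 to 0.098 (adjusted p = 0.313 by limma, exact permutation p = 0.2). In RPM, where the long transcript weighs more, the difference was -0.60 (adjusted p = 0.119), and with median centring of the libraries it was -0.11 (adjusted p = 0.725).

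The transcripts of NEAT1 are of interest because only the long one builds paraspeckles. The long transcript ENST00000501122 was at 7.81, 13.6 and 8.54 RPKM in D391N cells and at 14.7, 16.5 and 18.1 RPKM in the controls. All D391N values lay below all control values, as they did for 15.6% of the transcripts tested. The log2 difference was -0.75 (SE 0.29), the largest of the 3 NEAT1 transcripts tested, with an adjusted p of 0.254, on 4189 to 11392 estimated reads. The short polyadenylated transcript ENST00000499732 of 3441 nt, which shares its sequence with the start of the long one, was at 39.6, 42.9 and 20.8 RPKM in D391N cells and at 34.1, 45.3 and 47.9 RPKM in controls, with overlapping groups (-0.35, adjusted p = 0.616). The third, ENST00000616315 of 512 nt, was at 16.0, 21.7 and 28.4 RPKM in D391N cells and at 22.5, 27.0 and 25.6 RPKM in controls (-0.22, adjusted p = 0.709). The long transcript stood at 19.7, 31.8 and 41.0% of the short one in D391N cells and at 43.3, 36.5 and 37.7% in controls. These ratios overlapped (30.8 ± 10.7% against 39.1 ± 3.63%, SD, n = 3 each; exact permutation p = 0.3), so a change in the balance of the isoforms was not shown.

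TUG1 (ENSG00000253352, chr22:30969265-30979395) was at 43.0, 35.2 and 50.5 RPKM in D391N cells and at 36.9, 40.6 and 35.1 RPKM in the controls. D391N replicate 2 lay within the controls. The means were 42.9 ± 7.63 and 37.5 ± 2.80 RPKM (SD, n = 3 each), with a log2 difference of 0.18 and a 95% interval of -0.23 to 0.59 (adjusted p = 0.572 by limma, exact permutation p = 0.3). Its leading transcript ENST00000519077, which took 52.1 ± 2.68% of the gene in D391N cells and 51.4 ± 3.06% in controls, was at 21.4, 18.2 and 27.8 RPKM against 20.0, 21.0 and 16.9 RPKM (0.20, adjusted p = 0.713). The second, ENST00000569149, was at 11.6, 9.78 and 7.72 RPKM in D391N cells and at 6.31, 5.31 and 5.97 RPKM in controls. Its groups did not overlap, as for 10.1% of the transcripts tested in this direction, and its log2 difference was 0.70 (SE 0.25, adjusted p = 0.237). The third, ENST00000540687, was at 5.63, 3.30 and 7.80 RPKM against 5.21, 8.48 and 5.40 RPKM, and its difference of -0.23 changed sign when D391N replicate 2 was left out.

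OIP5-AS1 (ENSG00000247556, chr15:41282697-41313338) was at 56.6, 43.8 and 37.0 RPKM in D391N cells and at 52.7, 56.4 and 51.3 RPKM in the controls. The D391N libraries held both the highest and the lowest value, so the groups overlapped. The means were 45.8 ± 9.98 and 53.4 ± 2.68 RPKM (SD, n = 3 each), with a log2 difference of -0.24 and a 95% interval of -0.68 to 0.20 (adjusted p = 0.465 by limma, exact permutation p = 0.4). The leading transcript ENST00000500949 was at 16.9, 17.3 and 13.1 RPKM in D391N cells and at 15.6, 16.9 and 18.8 RPKM in controls (-0.12, adjusted p = 0.812), and this difference was 0.0042 without D391N replicate 3. ENST00000560706 was at 8.04, 9.58 and 8.78 RPKM in D391N cells and at 11.6, 13.5 and 12.0 RPKM in controls (-0.49, adjusted p = 0.306). Every D391N value was below every control value, as for 15.6% of the transcripts tested. These values had only 14.0 to 67.2 estimated reads each. ENST00000558945 was at 8.66, 2.94 and 6.15 RPKM against 10.3, 9.10 and 7.42 RPKM, with overlap of 1 pair (-0.70, adjusted p = 0.410). The gene is named as antisense to OIP5, and use of the strand in counting is not given in the sources used here.

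KCNQ1OT1 (ENSG00000269821, chr11:2608328-2699994) is transcribed antisense from within an intron of KCNQ1, and its single transcript ENST00000597346 is the longest of the 70, at 91667 nt. It was at 5.39, 9.21 and 5.78 RPKM in D391N cells and at 5.46, 5.32 and 5.26 RPKM in the controls. The control libraries were within 1.93% of one another as an SD, and D391N replicate 2 was the only library far from the rest. The means were 6.79 ± 2.10 and 5.34 ± 0.103 RPKM (SD, n = 3 each), with a log2 difference of 0.30 and a 95% interval of -0.26 to 0.85 (adjusted p = 0.477 by limma, exact permutation p = 0.2). Without D391N replicate 2 the difference was 0.062. This is the library with the lowest depth and the lowest share of reads on transcripts under 200 nt, and the part of these in the result was not tested. Per kilobase KCNQ1OT1 was low, but owing to its length it was at 482 to 844 RPM, beside 376 to 795 RPM for NORAD. Strand use in counting is not given, so whether reads of unspliced KCNQ1 were kept apart from those of KCNQ1OT1 is not known.

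MEG3 (ENSG00000214548, chr14:100826108-100861026) was barely present. Its 27 listed transcripts summed to 1.61, 1.32 and 0.981 RPKM in D391N cells and to 1.06, 0.863 and 1.33 RPKM in the controls, on 21.3 to 64.2 estimated reads. The means were 1.30 ± 0.317 and 1.09 ± 0.233 RPKM (SD, n = 3 each), and the groups overlapped (log2 difference 0.24, 95% interval -0.50 to 0.98, adjusted p = 0.686, exact permutation p = 0.5). Only 2 of the 27 transcripts reached 3 estimated reads in any library, and no transcript reached a mean of 1 RPKM, so the gene passed the filter by adding up the small values given to transcripts that drew no reads. The leading transcript ENST00000398461 was at 0.94, 0.46 and 0.38 RPKM in D391N cells and at 0.43, 0.31 and 0.47 RPKM in controls. The next, ENST00000523671 and ENST00000521256, had means of 0.11 and 0.05 RPKM in D391N cells and of 0.11 and 0.07 RPKM in controls. A difference in MEG3 was not detectable at this depth.

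**Figure D3:**
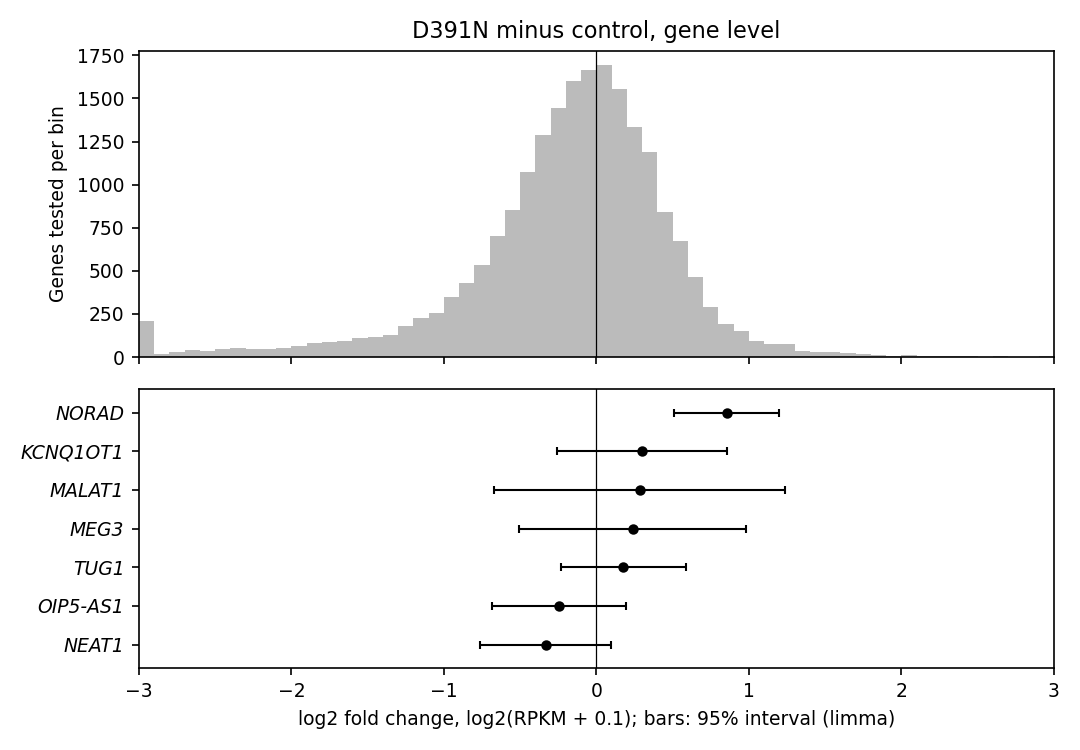
Upper panel, log2 fold changes (D391N minus control, on the log2(RPKM + 0.1) scale) of the 20714 genes tested, with values beyond 3 in either direction gathered in the end bins. Lower panel, the same quantity for the 7 lncRNA genes, points with 95% intervals from limma, where only the interval of NORAD (0.51 to 1.20) does not include 0.

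At the level of single transcripts, 32 of the 70 had a mean of at least 1 RPKM and were tested. The mean log2 level was higher in D391N cells for 15 and lower for 17. None passed the adjusted threshold, as 0.0604% of all 54671 transcripts did, and 8 of the 32 had an unadjusted p under 0.05, against 17.6% of all. The groups did not overlap for 3 of the 32 upwards, ENST00000565493 of NORAD, ENST00000569149 of TUG1 and ENST00000619449 of MALAT1, against 10.1% of all transcripts tested, and for 5 of the 32 downwards, against 15.6% of all. These shares are near those of all transcripts. Transcripts of 1 gene share reads and are not independent. The share of a gene taken by its leading transcript differed by less than the SD of the D391N libraries for all 5 genes with several transcripts. For MALAT1 and MEG3 the differences, 3.31 and 6.81 percentage points, were above the SD of the controls, 0.80 and 2.40. The exact permutation p-values were 0.4 to 1, with an adjusted p of 1 for each of the 5 genes. For NEAT1 the shares were 50.8 ± 13.4% and 50.3 ± 2.34%, for OIP5-AS1 35.0 ± 4.85% and 32.1 ± 3.99%, and for MEG3 44.0 ± 12.4% and 37.2 ± 2.40% in D391N and control cells (SD, n = 3 each).

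**Figure D4:**
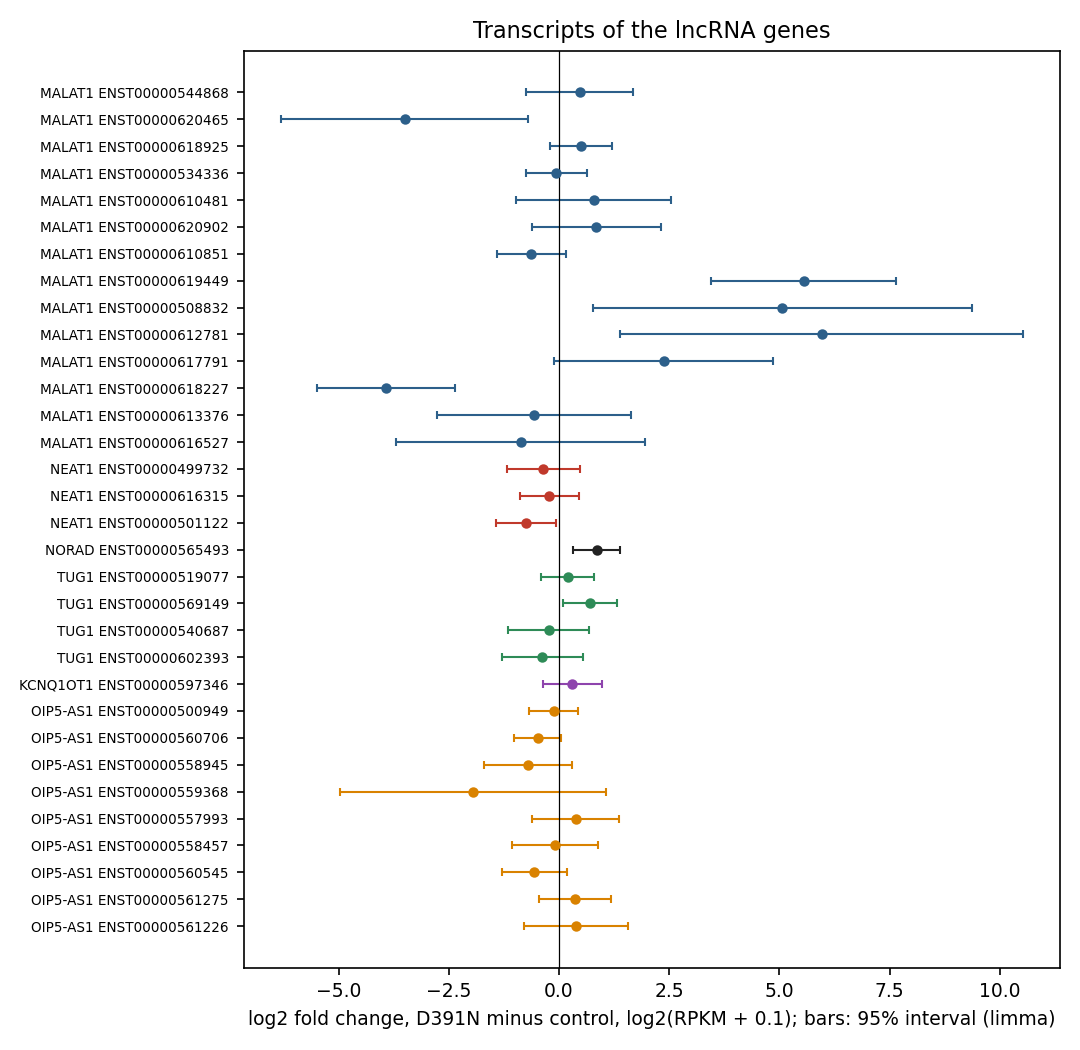
Log2 fold changes (D391N minus control, on the log2(RPKM + 0.1) scale) with 95% intervals from limma for the 32 transcripts tested, coloured by gene and ordered by level within a gene. The points of MALAT1 models run from -3.92 to 5.96, while the points of NORAD, TUG1, NEAT1 and KCNQ1OT1 lie within 1 of 0.

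The proteins that work with these lncRNAs, and the genes beside them, were taken from 10 lists with 95 entries, of which 81 were tested. None passed the adjusted threshold. An unadjusted p under 0.05 was seen for 13 of the 81 with higher and 8 with lower levels in D391N cells, against 6.76% and 16.0% of all genes. Of the paraspeckle proteins that assemble on NEAT1, 8 of 13 had higher and 5 lower mean log2 levels, with a median of 0.20. The most abundant, MATR3, was at 909, 1482 and 1149 RPKM in D391N cells and at 635, 619 and 672 RPKM in controls (0.85, adjusted p = 0.140), and NONO, a core paraspeckle protein, was at 805, 757 and 733 RPKM against 939, 877 and 1089 RPKM (-0.34, adjusted p = 0.394). MATR3 and NONO were thus each without overlap, in opposite directions, as were 10.5% of all genes upwards and 20.7% downwards.

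Of the nuclear speckle and MALAT1 maturation genes 12 of 14 were tested, 6 in each direction, with a median of -0.038. HNRNPC, which binds U-rich stretches of nuclear RNA, had a log2 difference of 0.060 (adjusted p = 0.920), and the splicing factor SRSF3 was at 411, 375 and 463 RPKM in D391N cells and at 601, 588 and 498 RPKM in controls (-0.43, adjusted p = 0.245). The largest differences upwards, named after their values were seen, were those of the speckle proteins SON (1.22, adjusted p = 0.140), SRRM1 (0.69, adjusted p = 0.181) and SRRM2 (0.56, adjusted p = 0.222). SON was at 348, 968 and 514 RPKM in D391N cells. The lowest adjusted p of the list was that of METTL3, which was lower in D391N cells (-0.56, adjusted p = 0.102). Of the 8 NORAD partners, 6 had higher mean log2 levels and the median was 0.18. The most abundant partners RBMX and ALYREF had log2 differences of 0.44 and 0.099 (adjusted p = 0.220 and 0.800). Of the 6 mRNAs of genome stability genes known to be bound by Pumilio, 4 had higher and 2 lower levels. SMC3, a cohesin subunit, was at 105, 189 and 152 RPKM in D391N cells and at 78.9, 81.3 and 86.5 RPKM in controls (0.81, adjusted p = 0.132), whereas BUB3, of the spindle checkpoint, had a difference of -0.37 (adjusted p = 0.453).

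Among the chromatin silencing genes 11 of 12 were tested, 9 with higher and 2 with lower mean log2 levels and a median of 0.23. Of the 2 lower, EHMT2 had at most 0.367 estimated reads on any transcript in any library, so its direction is uncertain. The most abundant were DNMT1, the maintenance DNA methyltransferase (0.063, adjusted p = 0.892), and CBX3, a heterochromatin protein (0.47, adjusted p = 0.219). In the imprinted domain around KCNQ1OT1 only 6 of 11 genes were high enough to test, 3 in each direction, and the most abundant were NAP1L4 (0.32, adjusted p = 0.413) and CARS (0.12, adjusted p = 0.798). Of the OIP5-AS1 partners and neighbours, ELAVL1, which encodes HuR, was at 70.1, 124 and 90.9 RPKM in D391N cells and at 35.5, 42.6 and 40.5 RPKM in controls. Its groups did not overlap, as for 10.5% of all genes tested in this direction. Its log2 difference of 1.23 (SE 0.23, adjusted p = 0.0813) was the largest of that list. Of the 7 genes of the list 4 had higher and 3 lower mean log2 levels, with a median of 0.12. NUSAP1, the most abundant of the list and a neighbour of OIP5-AS1, had a difference of 0.22 (adjusted p = 0.458).

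Of 9 genes listed for MEG3, 4 were tested, 3 with higher and 1 with lower mean log2 levels and a median of 0.20. MDM2, a ubiquitin ligase, was at 308, 443 and 296 RPKM in D391N cells and at 200, 222 and 175 RPKM in controls (0.79, adjusted p = 0.126). The lower gene, CDKN1A, was at 6.40, 4.93 and 5.58 RPKM against 8.71, 8.27 and 10.5 RPKM (-0.69, adjusted p = 0.114). Both were without overlap, in opposite directions, as were 10.5% of all genes upwards and 20.7% downwards. The genes beside MALAT1 and NEAT1 had a median of -0.29 over 8 genes, 6 of them lower, with DPF2 at 0.087 (adjusted p = 0.961) and LTBP3 at -0.41 (adjusted p = 0.430). Those beside NORAD and TUG1 had a median of -0.39 over 6 genes tested, 5 of them lower, with MORC2 at 0.21 (adjusted p = 0.447) and SMTN at -0.47 (adjusted p = 0.193). NORAD itself, at 0.85, was thus above the tested genes beside it.

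As a further reference, 29 of 36 other lncRNAs were tested, with 10 higher and 19 lower mean log2 levels, a median of -0.13 and none past the adjusted threshold. The most abundant were ZFAS1, a snoRNA host (-0.17, adjusted p = 0.581), and JPX (0.25, adjusted p = 0.389). The 1 other lncRNA with an unadjusted p under 0.05 and higher levels in D391N cells was MIR22HG, at 2.36, 1.82 and 1.74 RPKM against 1.30, 1.25 and 1.01 RPKM (0.68), and the 1 with lower levels was TERC, the RNA of telomerase, at 1.05, 1.69 and 1.76 RPKM against 3.23, 3.17 and 5.13 RPKM (-1.30). Both were low and were named after their values were seen. Over all genes tested, 6.76% had an unadjusted p under 0.05 with higher levels and 16.0% with lower levels.

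**Figure D5:**
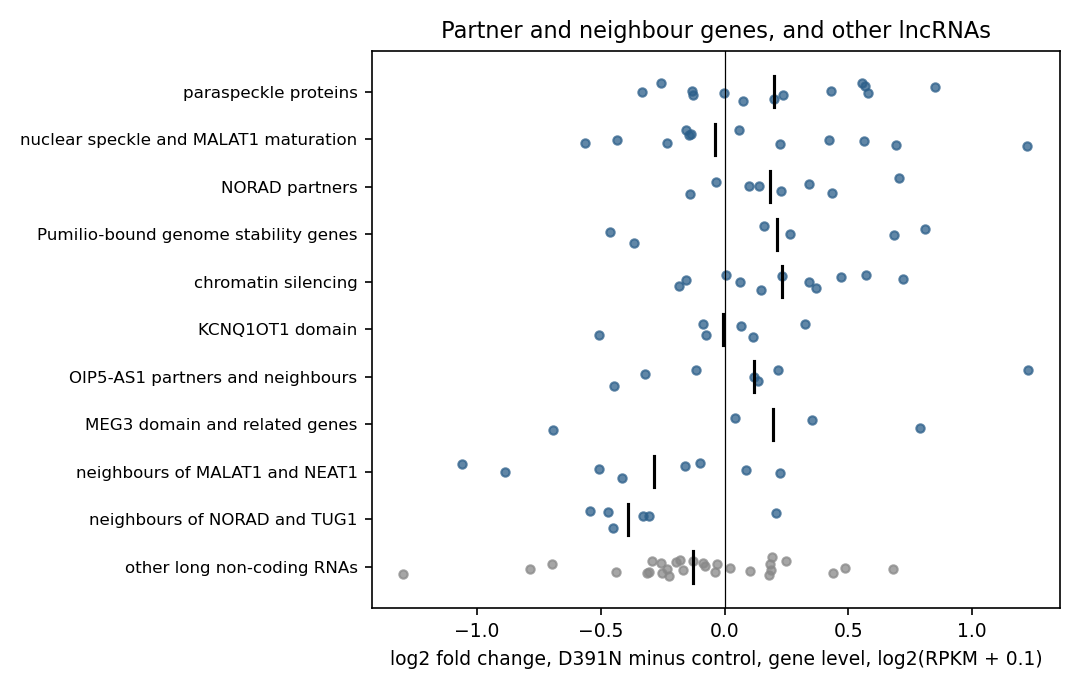
Log2 fold changes (D391N minus control, on the log2(RPKM + 0.1) scale) of the tested genes of the 10 partner and neighbour lists (blue) and of other lncRNAs (grey), 1 point per gene with a black bar at each list's median. The medians run from -0.39 for the genes beside NORAD and TUG1 to 0.23 for the chromatin silencing genes.

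The genes whose levels followed each lncRNA most closely across the 6 libraries were sought among 8624 genes with a mean of at least 10 RPKM, by Pearson's r of log2(RPKM + 0.1). The libraries share 2 conditions and their depth, so a high r describes these 6 libraries only. NORAD was followed most closely by NKRF (r = 0.993) and BACH1 (r = 0.992), both transcriptional repressors, and 111 genes had r above 0.95. KCNQ1OT1, whose levels set D391N replicate 2 apart, was followed by ENSG00000237414 (r = 0.999) and GABPB2 (r = 0.998), and 194 genes had r above 0.95. For MALAT1 the closest were ZBTB43 (r = 0.990) and ITPR2 (r = 0.989), for NEAT1 SYMPK (r = 0.989) and ATPAF2 (r = 0.988), for OIP5-AS1 ENSG00000260269 (r = 0.986) and PHF23 (r = 0.984), for TUG1 PUS7 (r = 0.971) and FAM199X (r = 0.967), and for MEG3 STAT5B (r = 0.958) and ZNF229 (r = 0.951). With only 21.3 to 64.2 estimated reads, the pattern of MEG3 itself is uncertain, and so are its closest genes.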

How the data were processed

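RNA-seq of 3 D391N and 3 control libraries was analysed. Per the study's methods, the authors sequenced rRNA-depleted total RNA as single-end reads, removed adapters with cutadapt, mapped to Ensembl transcripts of hg38, coding and non-coding, using Segemehl, and estimated levels with BitSeq; versions and use of strand are not given in the sources used here. For every transcript and library the authors deposited a natural log RPKM (a posterior mean) with a posterior variance. Natural log values were exponentiated, summed per gene and changed to log2(RPKM + 0.1), which understates the change of low genes. Features averaging at least 1 RPKM across the 6 libraries entered the test, limma 3.58.1 (trend) in R 4.3.3, with Benjamini-Hochberg adjustment over all of them at 0.05. Single values were compared by two-sided exact permutation. Reads behind a value were estimated from the posterior variance and cover counting and assignment error only. By this measure 54.9% of transcripts stayed under 3 reads throughout.

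Members and lists were chosen with earlier results of these data known. Genes named were the 7 lncRNAs, their 3 highest transcripts, the 2 highest genes of each list, any past the threshold, the 2 closest in level pattern and DIS3L2; markers shown, and other genes, were picked after their values were seen. Results for some genes that this rule names are not reported here. Symbols were found for 88.2% of gene identifiers. Gene positions are from RefSeq for GRCh38. Transcript sequences were taken by identifier from GENCODE, so lengths may differ from the release used by the authors. Of the listed symbols, TALAM1, RPPH1, PANDAR, LINC00152 and PECAM1 were not matched. Alternatives were other pseudocounts, filters, scalings, a replicate block, limma without trend, sums over transcripts of at least 1 RPKM and each library left out; RPM (RPKM times length, reads per 1000000) was added after seeing the data. Tables and plots used Python 3.11.15, pandas 2.3.3, numpy 2.4.6, scipy 1.17.1 and matplotlib 3.10.9.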

Additional observations from a re-analysis of the deposited data

How the results depend on the processing

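Of the 7 genes, 0 passed the threshold, and 1, NORAD, did without D391N replicate 1 (log2 difference 0.91, adjusted p = 0.0242) and with RPM (0.86, adjusted p = 0.0307). Leaving out each library gave 0 to 1 genes and a log2 difference of 0.78 to 0.91 for NORAD. Over all 17 alternatives NORAD ranged from 0.78 to 1.07, with adjusted p from 0.0242 to 0.294. Of the transcripts, 0 passed, and 0 to 4 with a library left out, the 4 being ENST00000619449, ENST00000508832, ENST00000618227 and ENST00000559368 without D391N replicate 1, where 4984 of 54901 transcripts passed in place of 33 of 54671. Of the partner and neighbour genes 0 passed, 3 (ELAVL1, TARDBP and METTL3) with RPM, and 0 to 10 with a library left out. Over all genes, 29 calls became 2267 without D391N replicate 1, 11 without D391N replicate 2, 2 without any 1 of the other 4 libraries, 646 with RPM, 61 with a pseudocount of 1, 16 with a pseudocount of 0.01, 14 with median centring, 17 with quantile normalization, 6 at a mean of at least 5 RPKM, 18 without a filter and 19 with sums over transcripts of at least 1 RPKM. The causes were not tested. The median log2 difference of the 7 genes, 0.24, was 0.46 with median centring, 0.52 with quantile normalization and 0.062 to 0.34 with a library left out; median centring moved the median of all genes from -0.090 to 0.13, and quantile normalization to 0.076. The genes whose groups did not overlap, 2167 higher and 4286 lower in D391N cells, became 4394 higher and 2384 lower with median centring and 3723 higher and 2748 lower with quantile normalization. Single genes kept their direction, although MALAT1 ran from 0.020 to 0.51 with a library left out and was 1.19 with quantile normalization, and OIP5-AS1 was -0.02 with median centring. Differences that reversed were that of ENST00000500949 (0.0042 without D391N replicate 3; -0.19 to 0.0042) and that of ENST00000540687 (0.093 without D391N replicate 2; -0.51 to 0.093). The difference in the share of the leading transcript, in percentage points, ran from -0.26 to 11.3 for MEG3, -5.04 to 7.96 for NEAT1 and -0.90 to 2.14 for TUG1.

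Whether replicate numbers pair the libraries was not settled. At gene level the libraries numbered alike deviated from their group means with correlations of 0.0699, 0.221 and -0.111. Libraries numbered differently were not compared in this way, so these values have no reference. With the replicate block NORAD had a log2 difference of 0.85 and an adjusted p of 0.160, and 2 genes were called in place of 29. MEG3 gave no value at a mean of at least 5 RPKM or with sums over transcripts of at least 1 RPKM, and its depth limits what can be said of it.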
